A study of Mus musculus with 6 samples.

Results

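The subject is a set of 10 mouse genes of intestinal chloride secretion and ion transport, chosen by name out of the 54532 genes counted in each library: Cftr, Slc12a2, Kcnq1, Kcne3, Slc26a3, Slc26a6, Slc9a3, Aqp8, Car1 and Guca2b. Each name had a single row in the deposited tables. RNA came from the intestine of newborn C57BL/6 mice, an inbred laboratory strain, and was prepared by SMARTer cDNA synthesis with PCR amplification and read in paired ends. One group of 3 libraries is labelled NECA, with treatment over 5 days, and the other 3 are labelled DMSO, a common solvent, as its control. NECA is an adenosine analogue that activates several adenosine receptors, and the title of the series names necrotizing enterocolitis, an inflammatory bowel disease of newborns. Bowel segment and route of dosing are not in the labels. Nor do they say that each library is a different animal. A p-value here therefore sets the group difference against the spread between these libraries only, and some of that spread may be technical.

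Fluid in the gut follows salt. In a secreting epithelial cell the Na-K-2Cl cotransporter Slc12a2 (NKCC1) loads chloride across the basolateral membrane, the potassium channel formed by Kcnq1 with its subunit Kcne3 returns potassium, and chloride leaves through the apical channel Cftr, which cyclic AMP opens and which is defective in cystic fibrosis. In an absorbing cell the sodium-proton exchanger Slc9a3 (NHE3) works beside the chloride-bicarbonate exchangers Slc26a3 (DRA) and Slc26a6 (PAT1), with carbonic anhydrases such as Car1 making the protons and bicarbonate they exchange, while aquaporins such as Aqp8 pass water. Uroguanylin, the peptide encoded by Guca2b, and guanylin, encoded by Guca2a, bind the receptor Gucy2c on the gut lining, and the cyclic GMP formed favours chloride and bicarbonate secretion over sodium uptake. Stimulation of the adenosine receptor Adora2b raises cyclic AMP in intestinal epithelium.

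Total counts ran from 15917018 to 18065078 in the NECA libraries and from 15531996 to 17922697 in the DMSO libraries. Markers of epithelium were abundant in each of the 6 libraries, with a summed level of 6 genes of 5570 to 8568 CPM in NECA and 4194 to 5997 CPM in DMSO (CPM, counts scaled to a common library size by TMM). Markers of position along the bowel differed in level between libraries, whose segment the labels do not give. The 5 genes listed here as jejunal markers were Pdx1, Gata4, Ada, Bche and Gkn3, and whether each is specific to jejunum was not tested. Their summed level was 221, 69.8 and 210 CPM in NECA replicates 1, 2 and 3. In DMSO replicates 1, 2 and 3 the summed level was 330, 283 and 235 CPM. That of 7 ileal markers was 360, 2877 and 698 CPM in NECA and 251, 271 and 596 CPM in DMSO. NECA replicate 2 was the most ileal library by these sums, and also had the most goblet cell marker RNA (4132 CPM, against 480 to 1898 CPM in the other 5 libraries). The hindgut transcription factors Hoxa13 and Hoxb13 had 71 and 28 counts in DMSO replicate 1 and 0 in every other library. The other hindgut Hox genes on the list, Hoxd10 to Hoxd13, were at 0 in all 6 libraries. DMSO replicate 2 had the highest summed smooth muscle markers, 5402 CPM, against 2138 to 2786 CPM in the other libraries. In tissue of mixed cells, fewer cells of a type and less RNA per cell cannot be told apart.

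Set against each other per transcript length, the 10 genes spanned a wide range. The hormone gene Guca2b stood first in each of the 6 libraries, at 364 to 1230 FPKM (the authors' deposited unit, which divides by transcript length and library size), and its lowest library lay above the highest value of any other gene of the set. Aqp8 had the second highest median, 39.9 FPKM, and among the 9 tested genes the widest range as a ratio, 1.19 to 147 FPKM. Slc9a3 followed at 11.3 to 55.4 FPKM, Slc12a2 at 27.5 to 33.0 FPKM and Slc26a3 at 12.5 to 20.2 FPKM, the last a range that did not overlap that of Slc12a2. Slc26a6 (5.84 to 18.4 FPKM), Kcnq1 (5.25 to 9.65 FPKM), Cftr (6.20 to 7.97 FPKM) and Kcne3 (5.23 to 10.4 FPKM) lay close together with overlapping ranges. Car1 was last in every library.

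**Figure D1:**
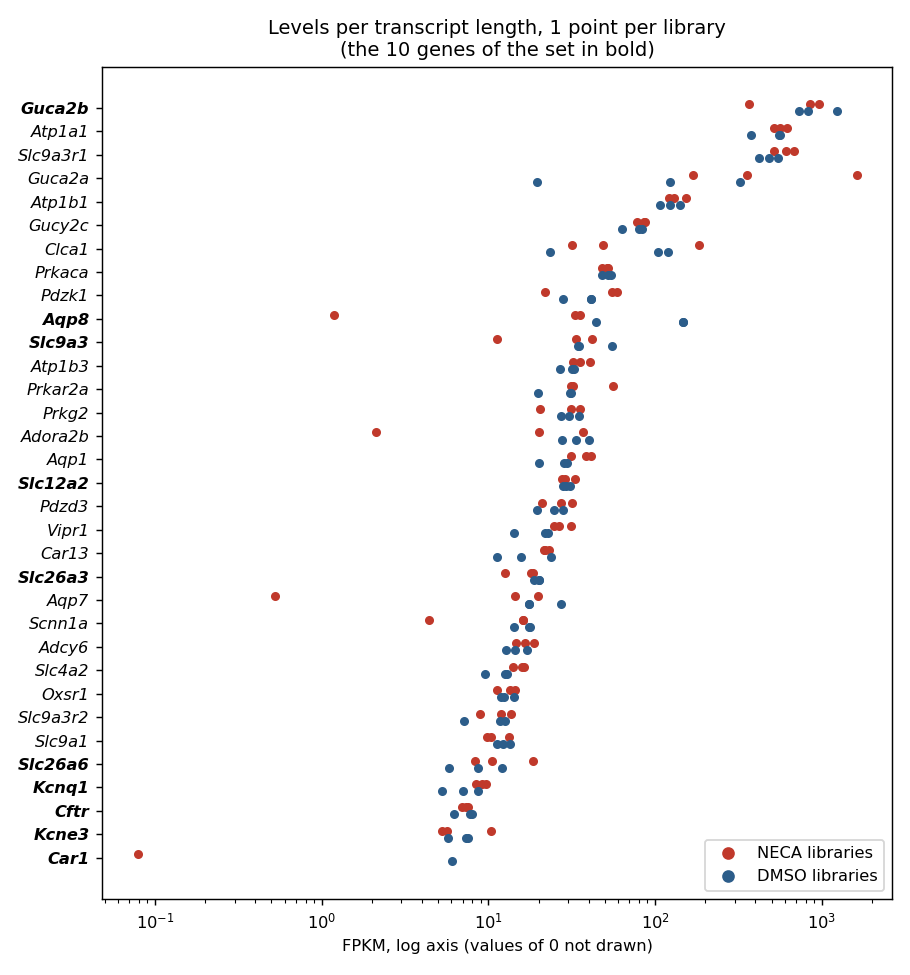
Deposited FPKM on a log axis for the 10 genes (bold) and the other listed transport genes among the 30 with the highest medians, 1 point per library, NECA red above DMSO blue. Guca2b lies at 364 to 1230 FPKM, Slc12a2 is narrow at 27.5 to 33.0 FPKM and Aqp8 is spread from 1.19 to 147 FPKM.

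The comparison of NECA with DMSO asked whether 5 days with an adenosine receptor agonist changed these transport genes in the bowel. Of the set, 9 passed the filter on low counts (Car1 did not), and 0 of the 9 passed the threshold of 0.05 in edgeR (quasi-likelihood F test, p adjusted over 15847 genes by Benjamini-Hochberg). The background was 0% called by that rule, with 868 genes (5.48%) at an unadjusted p under 0.05, where the set had 0. That 0 was 1 or 2 in other fits: 2 without a filter and without DMSO replicate 1 and NECA replicate 2 together, and 1 with limma on either FPKM scale and without NECA replicate 2, DMSO replicate 1 or DMSO replicate 3. DESeq2 also called 0 of the 9, and 11 genes elsewhere. Of the 9 genes, 4 had a positive and 5 a negative log2 fold change (NECA over DMSO), with a median of -0.019, against -0.0080 over all tested genes. The NECA libraries lay wholly below the DMSO libraries in 2 of the 9, Aqp8 and Slc26a3, where 7.16% of all tested genes did so, and wholly above them in 0, where 6.51% did.

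**Figure D2:**
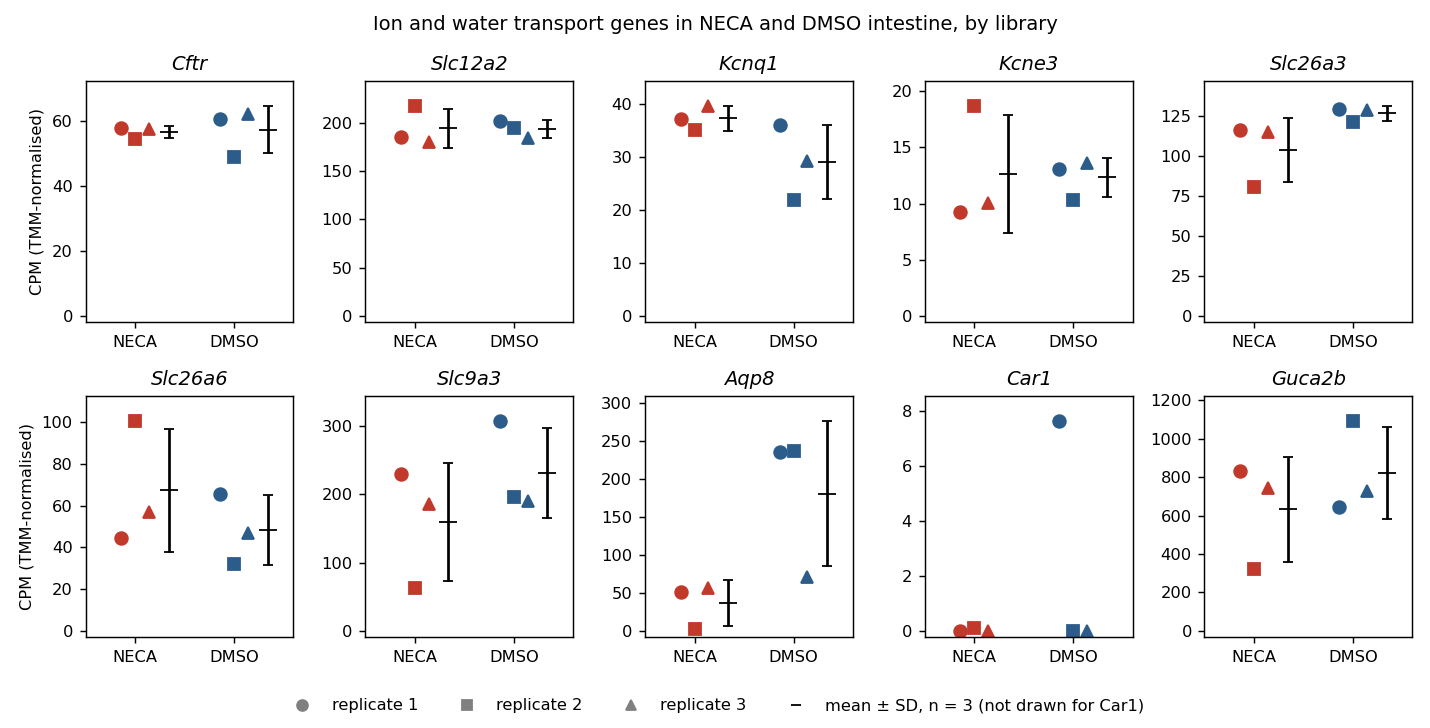
TMM-normalised CPM of each of the 10 genes in 3 NECA (red, left) and 3 DMSO libraries (blue, right), with circles, squares and triangles for replicates 1, 2 and 3, and black bars for the mean ± SD (not drawn for Car1). Cftr and Slc12a2 are level across the libraries, Aqp8 is lower in each NECA library than in any DMSO library, and Car1 is seen at 7.63 CPM in DMSO replicate 1 only, apart from 2 counts in NECA replicate 2.

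The 2 chloride carriers of secretion were the steadiest genes of the set. Cftr (ENSMUSG00000041301, chromosome 6, 18170687 to 18322768, plus strand, GRCm38) stood at 57.9, 54.6 and 57.5 CPM in NECA and 60.8, 49.1 and 62.4 CPM in DMSO, so the groups overlapped. Means were 56.7 ± 1.80 CPM in NECA and 57.4 ± 7.25 CPM in DMSO (SD, n = 3 each), a log2 fold change of -0.019 (SE 0.14; edgeR adjusted p = 0.973). Slc12a2 (ENSMUSG00000024597, chromosome 18, 57878678 to 57946821, plus strand) had 186, 217 and 180 CPM in NECA and 202, 195 and 184 CPM in DMSO, with a log2 fold change of 0.0038 (SE 0.15; edgeR adjusted p = 0.995). Over the 6 libraries Cftr spanned 0.34 and Slc12a2 0.27 log2 CPM. Only 9.14% of the tested genes had a smaller span than Cftr and 4.27% a smaller one than Slc12a2. Among genes within 2-fold of their own level those shares were 16.7% and 7.78%. The ratio of their FPKM, Slc12a2 over Cftr, kept to 3.82, 4.74 and 3.72 in NECA and 3.97, 4.73 and 3.51 in DMSO.

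The potassium channel pair was less even. Kcnq1 (ENSMUSG00000009545, chromosome 7, 143106362 to 143427042, plus strand) had 37.2, 35.0 and 39.6 CPM in NECA and 35.9, 21.9 and 29.2 CPM in DMSO. DMSO replicate 1 lay within the NECA values and the other 2 DMSO libraries below them. The means of 37.3 ± 2.29 CPM in NECA and 29.0 ± 7.02 CPM in DMSO (SD, n = 3 each) gave a log2 fold change of 0.36 (SE 0.20; edgeR adjusted p = 0.738), which was 0.20 without DMSO replicate 2, the library with the most smooth muscle RNA, and 0.59 without DMSO replicate 1 and NECA replicate 2. What part tissue makeup had in this was not tested. An antisense gene, Kcnq1ot1, shares 121 exonic bases with Kcnq1, and no strand setting is given in the sources used here, so reads from those bases could count for either. Kcnq1ot1 had 40, 39 and 33 counts in NECA and 41, 80 and 53 in DMSO, few beside the 577 to 703 and 328 to 645 counts of Kcnq1, and its log2 fold change was -0.77 (SE 0.37; edgeR adjusted p = 0.738). Without DMSO replicate 2 this was -0.39 (SE 0.32). With limma on log2(FPKM + 1) it was -0.022, but that scale flattens any difference in a gene at 0.020 to 0.056 FPKM.

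Kcne3 (ENSMUSG00000035165, chromosome 7, 100176502 to 100184869, plus strand) was at 9.23, 18.7 and 10.0 CPM in NECA and 13.1, 10.4 and 13.6 CPM in DMSO. NECA replicate 2 was the highest library and NECA replicates 1 and 3 were the 2 lowest, so the near-zero log2 fold change of 0.036 (SE 0.30; edgeR adjusted p = 0.978) averaged unlike libraries. Without NECA replicate 2 it was -0.36 (SE 0.20; edgeR adjusted p = 0.848). Kcnq1 per Kcne3 in FPKM was 1.75, 0.815 and 1.71 in NECA and 1.19, 0.920 and 0.931 in DMSO, so the ratio was highest in NECA replicates 1 and 3 and lowest in NECA replicate 2.

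The chloride-bicarbonate exchangers differed in pattern. Slc26a3, the exchanger that is lost in congenital chloride diarrhoea of humans (ENSMUSG00000001225, chromosome 12, 31390871 to 31473917, plus strand), had 116, 80.6 and 115 CPM in NECA and 130, 122 and 129 CPM in DMSO. Each NECA library lay below each DMSO library, with means of 104 ± 20.3 CPM in NECA and 127 ± 4.51 CPM in DMSO (SD, n = 3 each), a log2 fold change of -0.29 (SE 0.18; edgeR adjusted p = 0.738). The gap between NECA replicate 1 and DMSO replicate 2 was small, 116 against 122 CPM, and without NECA replicate 2 the fold change was -0.13 (SE 0.12).

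Slc26a6 (ENSMUSG00000023259, chromosome 9, 108853283 to 108913049, plus strand) had 44.7, 101 and 56.8 CPM in NECA and 65.8, 32.2 and 47.1 CPM in DMSO. Its highest library was NECA replicate 2 and its lowest DMSO replicate 2, and the rest of both groups overlapped. The log2 fold change was 0.48 (SE 0.35; edgeR adjusted p = 0.738), with 0.069 (SE 0.28) without NECA replicate 2, 0.26 (SE 0.37) without DMSO replicate 2 and 0.75 (SE 0.37) without DMSO replicate 1. In FPKM Slc26a3 exceeded Slc26a6 by 2.21 and 1.72 times in NECA replicates 1 and 3 and by 1.68, 3.21 and 2.33 times in the DMSO libraries, while in NECA replicate 2 the ratio was 0.681. The exchanger that dominates per length was therefore Slc26a6 in that library and Slc26a3 in the other 5.

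Slc9a3, the main apical sodium-proton exchanger (ENSMUSG00000036123, chromosome 13, 74121457 to 74169442, plus strand), was at 230, 62.9 and 186 CPM in NECA and 307, 196 and 190 CPM in DMSO. NECA replicate 2 was far below the other 5 libraries and DMSO replicate 1 above them, and the groups overlapped. The means were 159 ± 86.5 CPM in NECA and 231 ± 66.0 CPM in DMSO (SD, n = 3 each), with a log2 fold change of -0.54 (SE 0.44; edgeR adjusted p = 0.749). It was -0.89 (SE 0.47) without NECA replicate 1, -0.28 (SE 0.50) without DMSO replicate 1 and -0.15 (SE 0.24) without NECA replicate 2. It turned to 0.11 (SE 0.18) when DMSO replicate 1 and NECA replicate 2 were both left out. Slc9a2, a sodium-proton exchanger of the same family, had its highest value in the library where Slc9a3 was lowest. It stood at 28.3, 125 and 25.9 CPM in NECA and 39.1, 12.6 and 23.4 CPM in DMSO. The FPKM of Slc9a3 was 9.11 to 19.7 times that of Slc9a2 in the other 5 libraries and 0.638 times in NECA replicate 2. Over the 6 libraries, the tested genes whose centred log2 CPM lay nearest to Slc9a3 included the divalent metal transporter Slc11a2 (root-mean-square difference 0.124) and Ambp (0.128). Both, like Slc9a3, were lowest in NECA replicate 2, Slc11a2 at 136 CPM there against 430 to 627 CPM elsewhere.

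Aqp8, a water channel of the gut lining, had the largest log2 fold change in size of the 9 tested genes. Aqp8 (ENSMUSG00000030762, chromosome 7, 123462291 to 123468004, plus strand) had 51.6, 1.89 and 56.5 CPM in NECA, from 799, 38 and 985 counts, and 235, 236 and 70.3 CPM in DMSO, from 4211, 3537 and 1126 counts. All 3 NECA libraries lay below all 3 DMSO libraries, but DMSO replicate 3 was closer to NECA replicates 1 and 3 than to the other DMSO libraries. The means were 36.6 ± 30.2 CPM in NECA and 180 ± 95.4 CPM in DMSO (SD, n = 3 each), with a log2 fold change of -2.30 (SE 0.99). By edgeR's quasi-likelihood test this did not pass, with an unadjusted p = 0.0505 and an adjusted p = 0.738. Leaving out 1 library at a time gave -2.76 to -1.74, the smallest without NECA replicate 2 (SE 0.48), and leaving out DMSO replicate 1 together with NECA replicate 2 gave -1.495 (SE 0.49), with edgeR adjusted p of 0.637 to 0.940 throughout. Of the tested genes, 99.8% had a smaller span over the 6 libraries than Aqp8, 6.88 log2 CPM.

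Markers of bowel position differed between the libraries beside Aqp8. All 5 jejunal markers had a negative and all 7 ileal markers a positive log2 fold change (medians -1.02 and 1.92, against -0.0080 over all tested genes), and 0 of the 12 passed by edgeR's adjusted p. Both lists were drawn up with earlier results of these data known, so the shared signs are a description and not independent support. Fabp6, the ileal bile acid binding protein, had 0, 38381 and 2605 counts in NECA and 1, 3 and 2159 counts in DMSO. NECA replicate 2, with the most Fabp6, had the least Aqp8, and DMSO replicate 3, the DMSO library with Fabp6, had the least Aqp8 of its group. In NECA replicate 3, however, with 2605 Fabp6 counts, Aqp8 was at 56.5 CPM, above its level in NECA replicate 1. NECA replicate 1, with 0 Fabp6 counts, had 51.6 CPM of Aqp8, against 235 and 236 CPM in DMSO replicates 1 and 2, with 1 and 3 Fabp6 counts. The other ileal markers did not place NECA replicate 1 alike. Muc3 was at 55.8 CPM there, against 22.0 and 24.8 CPM in those DMSO libraries, and Osr2 at 31.0 against 6.02 and 7.62 CPM. Fgf15 was at 4.19 against 0 and 0 CPM, and Slc51a at 222 against 177 and 188 CPM. Slc51b was at 46.5 CPM there, between the 44.4 and 49.5 CPM of those DMSO libraries. Slc10a2 was at 0.0645 CPM in NECA replicate 1, against 2.17 and 0 CPM in DMSO replicates 1 and 2. Of the genes listed as jejunal, Pdx1 was at 1.87 CPM in NECA replicate 1, against 15.7 and 10.9 CPM in DMSO replicates 1 and 2. Ada was at 17.3 against 65.9 and 58.5 CPM, and Bche and Gkn3 were also lower there than in both. Gata4, at 144 CPM, lay between the 162 and 137 CPM of those DMSO libraries. The part of bowel position in the Aqp8 difference was not tested.

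Of the summed FPKM of Aqp8 and the 5 other aquaporins listed, Aqp8 took 30.9%, 2.25% and 33.8% in NECA and 67.6%, 70.5% and 42.3% in DMSO. Aqp1, a channel of vessels among other cells, took 29.2%, 72.8% and 39.0% in NECA and 13.7%, 9.67% and 27.5% in DMSO. Its own level was 81.0, 102 and 108 CPM in NECA and 79.0, 53.8 and 75.7 CPM in DMSO. Every NECA library lay above every DMSO library, as in 6.51% of all tested genes, by a small gap of 81.0 against 79.0 CPM. The log2 fold change was 0.48 (SE 0.19, edgeR adjusted p = 0.738), and 0.33 (SE 0.17) without DMSO replicate 2. Aqp7, a channel for glycerol and water, was at 1.49 CPM in NECA replicate 2, also the lowest library for Aqp8, against 40.9 to 78.6 CPM in the other 5 libraries. The nearest tested genes to Aqp8 over the 6 libraries were Sectm1b (root-mean-square difference 0.528 in centred log2 CPM), Rdh7 (0.582) and Tmprss6 (0.587). Sectm1b had 276, 8.41 and 289 CPM in NECA and 479, 642 and 361 CPM in DMSO.

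**Figure D3:**
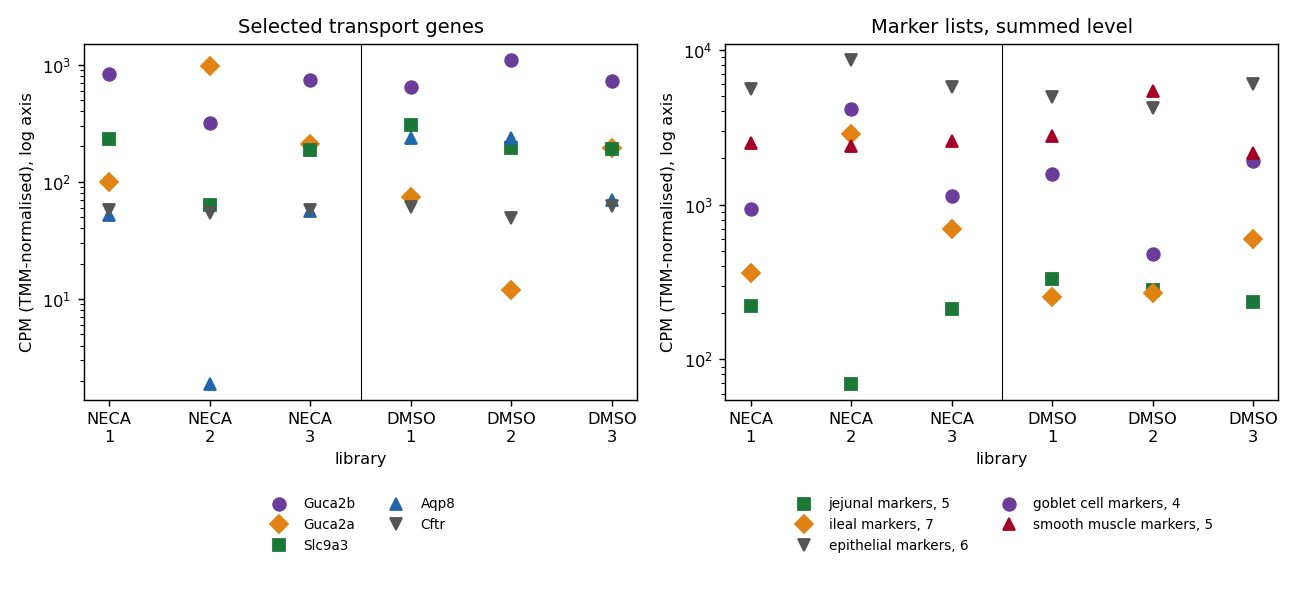
TMM-normalised CPM on log axes in the 3 NECA libraries (left of the line) and the 3 DMSO libraries (right of it), for Guca2b, Guca2a, Slc9a3, Aqp8 and Cftr in the first panel and for the summed levels of marker lists in the second. NECA replicate 2 combines the lowest Aqp8 (1.89 CPM), Slc9a3 and Guca2b with the highest Guca2a, the lowest jejunal sum (69.8 CPM) and the highest ileal sum (2877 CPM), while Cftr stays between 49.1 and 62.4 CPM.

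The start regions of Aqp8, the tested gene of the set with the widest log2 span, and of Cftr, one of the 2 with the narrowest, are shown side by side, as RefSeq gives them on GRCm38.p6, 250 bases before to 50 after the transcript start. They are Aqp8, chr7:123462044-123462343, plus strand, and Cftr, chr6:18170437-18170736, plus strand. Capitals mark matches, on either strand, to 4 short motifs chosen after the values were seen. Factors of the GATA family are represented by the letters AGATAA, and those of the CDX family, which pattern the gut, by TTTAT. For HNF1 the half-site used was GTTAA, and for the cyclic AMP response element the half-site TGACG.
Aqp8: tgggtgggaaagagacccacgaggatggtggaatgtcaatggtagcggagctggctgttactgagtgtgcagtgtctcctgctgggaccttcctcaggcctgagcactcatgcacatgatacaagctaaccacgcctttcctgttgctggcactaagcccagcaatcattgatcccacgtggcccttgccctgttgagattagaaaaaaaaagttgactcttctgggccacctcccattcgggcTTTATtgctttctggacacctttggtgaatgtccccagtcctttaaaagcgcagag
Cftr: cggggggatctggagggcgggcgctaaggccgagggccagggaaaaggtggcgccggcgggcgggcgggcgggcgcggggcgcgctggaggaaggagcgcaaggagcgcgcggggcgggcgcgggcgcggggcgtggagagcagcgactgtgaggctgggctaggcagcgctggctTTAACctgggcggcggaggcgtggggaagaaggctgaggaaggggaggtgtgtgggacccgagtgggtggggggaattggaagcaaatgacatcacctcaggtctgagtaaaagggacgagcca
The Aqp8 window held a TTTAT 6 bases before the start, a match that 40.0% of 32851 promoters hold. That of Cftr held a GTTAA on the opposite strand 74 bases before the start, found in 24.2% of promoters. Neither window held AGATAA or TGACG, and no match overlapped another.

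Car1, a carbonic anhydrase of colon epithelium and red blood cells (ENSMUSG00000027556, chromosome 3, 14766216 to 14808368, minus strand), was in effect a gene of 1 library. It had 0, 2 and 0 counts in NECA and 137, 0 and 0 in DMSO. A count of 0 allows up to 3 counts, or 0.172 to 0.200 CPM in the 4 libraries at 0, against the 7.63 CPM of DMSO replicate 1. This floor covers counting error only, and amplified reads are not independent molecules. The gene was not tested, and no group difference can be read from it. The 4 adult haemoglobin genes, markers of red cells, summed to 7992, 3916 and 11687 counts in NECA and 9476, 9856 and 5263 counts in DMSO, and the part of red cells in the Car1 counts was not tested. Counted after the values were seen, 6 genes had at least 50 counts in DMSO replicate 1 and at most 2 in each other library: Atp12a, the colonic proton-potassium pump (168 counts), Car1, Hoxa13, Six2 (65), Best2 (57), a bicarbonate and chloride channel of colonic goblet cells, and Hoxa11 (55). By the same limits DMSO replicate 2 had 3 such genes and each other library 0. Slc26a9, an anion transporter, had 44 counts in DMSO replicate 1 and 0 elsewhere. Nearest to Car1 among tested genes were B3galt5 (root-mean-square difference 0.753 in centred log2 CPM), Cyp2c55 (0.762) and Steap4 (0.908), each highest in DMSO replicate 1, with 27.1, 30.5 and 33.7 CPM there. Car1 therefore appeared in the library that alone held Hoxa13 and Hoxb13, and what part hindgut tissue had in it was not tested.

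Guca2b, which encodes uroguanylin (ENSMUSG00000032978, chromosome 4, 119656607 to 119658954, minus strand), had 832, 319 and 744 CPM in NECA and 643, 1091 and 727 CPM in DMSO. NECA replicate 2 was the lowest library and DMSO replicate 2 the highest, with the other 4 mixed between the groups. The means were 632 ± 274 CPM in NECA and 820 ± 238 CPM in DMSO (SD, n = 3 each), a log2 fold change of -0.38 (SE 0.38; edgeR adjusted p = 0.776). It was -0.051 (SE 0.23) without NECA replicate 2, -0.12 (SE 0.42) without DMSO replicate 2 and -0.62 (SE 0.43) without NECA replicate 1.

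Guca2a, the guanylin gene near it, had the opposite order in its extreme libraries. It had 99.4, 969 and 211 CPM in NECA and 73.9, 11.9 and 192 CPM in DMSO, highest where Guca2b was lowest and lowest where Guca2b was highest. Its log2 fold change was 2.20 (SE 1.08; edgeR adjusted p = 0.738), 0.74 (SE 0.86) without NECA replicate 2 and 3.31 (SE 1.21) without DMSO replicate 3. In FPKM, uroguanylin exceeded guanylin by 5.71 and 2.41 times in NECA replicates 1 and 3 and by 5.94, 62.6 and 2.58 times in DMSO, while in NECA replicate 2 the ratio was 0.225. Their shared receptor Gucy2c was even, at 306, 343 and 344 CPM in NECA and 321, 255 and 332 CPM in DMSO (log2 fold change 0.13, SE 0.18; edgeR adjusted p = 0.826), a value of 0.021 without DMSO replicate 2 and 0.21 without DMSO replicate 3.

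The start regions of the 2 peptide genes, whose transcript starts lie 21213 bases apart on opposite strands, are shown because each was highest in the library where the other was lowest. Guca2b is at chr4:119658896-119659195, minus strand, and Guca2a at chr4:119637482-119637781, plus strand, both from RefSeq on GRCm38.p6, with capitals for the same 4 motifs.
Guca2b: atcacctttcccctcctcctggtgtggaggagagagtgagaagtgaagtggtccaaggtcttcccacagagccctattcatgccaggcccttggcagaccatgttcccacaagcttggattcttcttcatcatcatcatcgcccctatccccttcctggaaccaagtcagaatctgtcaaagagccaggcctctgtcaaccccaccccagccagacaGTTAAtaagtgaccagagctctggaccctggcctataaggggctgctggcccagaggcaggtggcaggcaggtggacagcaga
Guca2a: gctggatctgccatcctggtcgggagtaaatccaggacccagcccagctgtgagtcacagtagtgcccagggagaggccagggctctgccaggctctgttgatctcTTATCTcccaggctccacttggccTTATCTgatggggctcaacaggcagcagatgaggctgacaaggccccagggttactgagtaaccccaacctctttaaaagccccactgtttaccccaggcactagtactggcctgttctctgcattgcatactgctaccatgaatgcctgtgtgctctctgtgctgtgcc
The Guca2b window held a GTTAA 33 bases before the start, and that of Guca2a held AGATAA on the opposite strand, read here as TTATCT, with its ends nearest the upstream side 144 and 120 bases before the start. AGATAA is held by 11.2% of promoters. These are matches of letters, not sites shown to be bound.

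The wider list of transport genes held 0 calls. Of 51 further genes listed by role, 47 were tested, 29 with a positive and 18 with a negative log2 fold change (median 0.10), and 0 passed edgeR's adjusted threshold, where the background was 0%. By unadjusted p under 0.05 there were 4 higher and 1 lower in NECA, against 2.45% and 3.03% of all tested genes. These 5 were also the further genes with the smallest p. They were 2 carbonic anhydrases, 2 bicarbonate carriers and Aqp1. Car12, a membrane carbonic anhydrase, stood at 29.0, 40.8 and 24.03 CPM in NECA and 14.3, 13.4 and 19.6 CPM in DMSO, so the groups did not overlap, with a log2 fold change of 0.99 (SE 0.25; edgeR adjusted p = 0.738) that was 0.76 (SE 0.21) without NECA replicate 2. Slc4a4, the sodium-bicarbonate cotransporter, had 39.0, 99.3 and 49.6 CPM in NECA and 36.1, 28.7 and 37.6 CPM in DMSO (log2 fold change 0.88, SE 0.33; 0.38, SE 0.18 without NECA replicate 2). The basolateral anion exchanger Slc4a2 had 135, 134 and 117 CPM in NECA and 106, 80.6 and 108 CPM in DMSO (log2 fold change 0.39, SE 0.16).

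Car2, a cytosolic carbonic anhydrase, had 8.52, 5.13 and 9.003 CPM in NECA and 94.2, 17.2 and 9.87 CPM in DMSO. Its log2 fold change of -2.43 (SE 0.80; edgeR adjusted p = 0.738) was -0.85 (SE 0.36) without DMSO replicate 1, the library that held Car1, and -1.53 with limma on log2(FPKM + 1). In the acid and bicarbonate group 8 of 9 tested genes had a positive fold change, with a median of 0.54, against 7764 of 15847 tested genes and a median of -0.0080 overall. That group median was the value of Slc26a1 (SE 0.40), with 17, 15 and 10 counts in NECA and 11, 8 and 8 in DMSO. NECA replicate 2 stood apart in this group: Car4 was at 19.9 CPM there and 0.194 to 2.01 CPM elsewhere, and Slc26a2 at 247 CPM there and 53.0 to 119.9 CPM elsewhere. The 12 tested secretion partners such as the sodium pump and the calcium-activated channel Ano1 had 6 positive and 6 negative values (median -0.012). Slc9a3r1, the scaffold that holds Slc9a3 and Cftr at the apical membrane, was at 1161, 1001 and 1314 CPM in NECA and 935, 824 and 1064 CPM in DMSO (log2 fold change 0.30, SE 0.22; edgeR adjusted p = 0.738). Adora2b, an adenosine receptor that couples to cyclic AMP, was at 36.7, 3.93 and 68.5 CPM in NECA and 51.2, 63.5 and 74.5 CPM in DMSO, lowest in the same library as Aqp8 and Slc9a3 (log2 fold change -0.79, SE 0.76). That value was -0.26 (SE 0.27) without NECA replicate 2, -1.64 (SE 0.80) without NECA replicate 3 and -1.35 (SE 0.84) with the replicate number as a block.

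**Figure D4:**
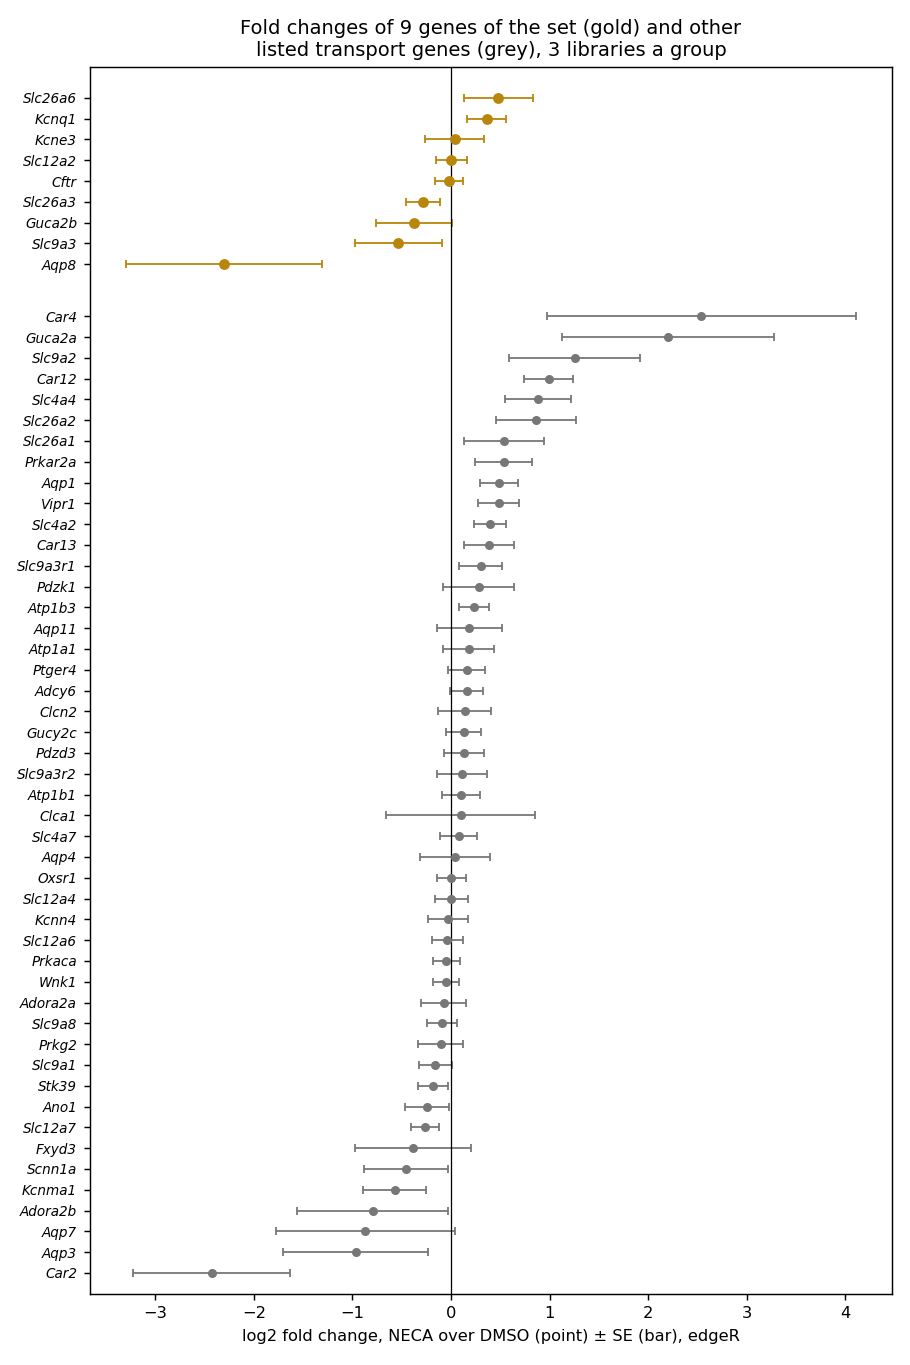
Log2 fold change, NECA over DMSO, with its SE from edgeR, for the 9 tested genes of the set (gold) and 47 further transport genes (grey). Cftr and Slc12a2 sit at 0 with bars of 0.14 and 0.15, Aqp8 is the lowest of the set at -2.30 with a bar of 0.99, and 0 genes pass the adjusted threshold.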

How the data were processed

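For each of 6 libraries the authors deposited a whole-number count and an FPKM value per gene, per the file headers. Per the submitters' processing notes HISAT, StringTie and edgeR and the builds mm10 and GRCm38 were used; their versions and order, the strand setting and the handling of multiply matching reads were not stated in those sources. The deposited FPKM follow from the counts through a gene length term and a library factor. The library factor was 1.12 for NECA replicate 2 relative to DMSO replicate 1, where the total counts stood at 1.01.

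Groups came from the sample titles. Counts were filtered with filterByExpr (minimum count 10, minimum total 15), scaled by TMM and tested with edgeR 4.0.16 (glmQLFit and glmQLFTest, two-sided, R 4.3.3), without covariates, and p-values were Benjamini-Hochberg adjusted over all 15847 tested genes, with a threshold of 0.05. SE is the fold change divided by the root of its F statistic. CPM are counts over library total times TMM factor. Scripts were tested on simulated data. Alternatives were DESeq2 1.42.0 and its size factors, no filter, a stricter filter (5 CPM in 3 libraries), a replicate block, limma 3.58.1 on log2(FPKM + 1) and log2(FPKM + 0.1), and each library left out. Leaving out DMSO replicate 1 and NECA replicate 2 together was added after seeing the data.

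The genes, lists and tests were chosen with earlier results of these data known. Named genes were the 10 of the set, 5 for their role (Guca2a, Gucy2c, Adora2b, Slc9a3r1, Kcnq1ot1), the 5 other listed genes with the smallest p, the 3 nearest tested genes (root-mean-square difference of centred log2 CPM, prior count 2) to each gene spanning over 2 log2 CPM, and markers beside a result. A gene that this rule names is not reported here. Others were named after their values were seen: Slc9a2, Aqp7, Car4, Slc26a2, Atp12a, Best2, Six2, Hoxa11, Slc26a9 and the haemoglobin genes. Coordinates are from GENCODE M21 (GRCm38), which holds 54409 of the 54532 identifiers. Promoters were found for 7 of the 10 genes and for Guca2a in the RefSeq table.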

Additional observations from a re-analysis of the deposited data

How the results depend on the processing

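The count of 0 genes of the set and 0 further transport genes called held under each alternative tried. Over all genes, DESeq2 called 11 and edgeR without a filter 2, against 0 in the reported fit. The median log2 fold change of the tested genes of the set, -0.019 as reported, was -0.15 without a filter, where Car1 enters, and ran from -0.12 to 0.014 with each library left out. Signs turned for the genes near 0. Cftr was at 0.0025 and 0.0037 with limma on log2(FPKM + 1) and log2(FPKM + 0.1), and at 0.056 without DMSO replicate 1 and NECA replicate 2. Slc12a2 was at -0.016 with the stricter filter, -0.00011 with the replicate block and -0.044 without those 2 libraries. Kcne3 was at -0.034 with the replicate block, -0.0081 and -0.015 with limma on the 2 FPKM scales, and -0.31 without those 2 libraries. Slc9a3 was at 0.11 without those 2 libraries, against -0.89 to -0.15 with 1 library left out. With 1 library left out, Cftr ran from -0.12 to 0.047, Slc12a2 from -0.081 to 0.058 and Kcne3 from -0.36 to 0.22. Beyond the left-out libraries named here the cause of these turns was not tested. Whether the replicate numbers pair the libraries is not in the labels. Deviations of same-numbered libraries correlated at 0.0087, -0.19 and -0.020 across genes, and those of other pairs at -0.30 to 0.25. With 3 libraries a group these values cannot decide whether the libraries were paired. The replicate block called 0 genes of the set, as did every other fit. With 3 libraries a group, differences such as that of Aqp8 were not distinguishable from the spread at this sample size after adjustment. Kcnq1ot1 did not pass the stricter filter and has no value there.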
